A study of Mus musculus with 16 samples.

Results

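The genes described here were 58 genes of mitosis, which build the spindle, hold and separate the chromosomes and divide the cell. They were chosen by name from a fixed list and looked up by symbol among the 51912 genes of the table, where all 58 were found, each in 1 row. Their RNA was measured by bulk RNA sequencing in 16 libraries from 4 subpopulations of cMyc+ light zone (LZ) B cells of the germinal center (GC), 4 libraries each. The GC is the site in which activated B cells mutate their receptors, compete for T cell help in the LZ and divide in the dark zone (DZ), and cMyc is the factor that GC B cells switch on after positive selection. All libraries came from spleens of cMyc gfp/gfp reporter mice, in which cMyc is made as a fusion with GFP. The mice were 6 to 15 weeks old and of both sexes, and had received sheep red blood cells (SRBC) intraperitoneally 7 d before. All sorted cells were B220+ CD38low CD95+ cMycGFP+. The cMyc+prePB subpopulation was sorted as CD69hi, cMyc+early as CD23hi CD21/35hi, cMyc+lateCD23int as CD23int CD21/35int and cMyc+lateCD23lo as CD23lo CD21/35lo. In the study's gating, DZ cells were removed from the early and late subpopulations. Zone markers were not used for cMyc+prePB, which lay predominantly but not wholly in the LZ gate. In the study, the last 3 stand for successive stages from positive selection toward the DZ, and cMyc+prePB for cells near the plasmablast fate. The labels number the libraries 1 to 4 in each subpopulation and do not say whether each came from a separate animal, so p-values measure only the spread between these libraries.

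Entry into mitosis is driven by the kinase Cdk1 with its cyclins, together with the Polo and Aurora kinases. Motor proteins and microtubule binding proteins then form the spindle, kinetochores attach the chromosomes to it, and the spindle checkpoint holds back the anaphase promoting complex until every chromosome is attached. After anaphase the cytokinesis machinery splits the cell. The RNAs of most of these genes are made in G2 and M phase and are scarce in G1, so a bulk level reflects both the share of cells in these phases and the RNA per cell. These 2 cannot be told apart in bulk samples. LZ B cells that have been selected enter the cell cycle before they return to the DZ. In the study, some cells of each cMyc+ LZ subpopulation also finished mitosis in the LZ. By flow cytometry with labels of new DNA, the study found more post-S (G2 or M) cells in cMyc+early. It found more G1 cells in cMyc+lateCD23int and the longest S phase in cMyc+prePB. The part of these phase shares in the RNA levels described here was not tested.

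Transcription of mitotic genes is known to be timed by the DREAM and MuvB complexes, which bind the cell cycle genes homology region (CHR) with the core TTTGAA or TTTAAA, and by NF-Y, which binds CCAAT. Promoter windows of RefSeq (GRCm38.p6, 250 bases before to 50 after the gene start) were found for 48 of the 58 genes, and both motifs were searched on both strands. A TTTGAA or TTTAAA was present in 39 of the 48 windows (81.25%), against 19.6% of the 8618 tested genes with a window and 27.8% of all 27025 windows. CCAAT was present in 36 (75.0%), against 40.3% and 37.9%, and 26 windows (54.2%) held at least 2 CCAAT, against 16.3% and 12.2%. Both motifs stood in 33 windows (68.75%), against 8.25% of tested genes and 10.9% of all windows. A match of letters is a description and not a binding site. The 150 bases before the start of 6 genes are shown, in capitals the motifs in the orientation found (ATTGG and TTCAAA are CCAAT and TTTGAA on the other strand). These genes were picked by their expression described further on: *Plk1* followed the replicate number, and *Mki67*, *Nusap1* and *Kif20b* the subpopulation. *Top2a* and *Kif11* varied least among the genes given in full, and 54.8% of the sum of squares of *Kif11* lay between subpopulations. A link between motifs and expression was not tested.
Plk1, chr7:122159285-122159434, plus strand: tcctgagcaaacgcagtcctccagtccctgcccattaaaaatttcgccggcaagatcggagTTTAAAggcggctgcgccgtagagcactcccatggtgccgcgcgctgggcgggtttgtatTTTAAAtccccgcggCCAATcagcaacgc
Top2a, chr11:99024190-99024339, minus strand: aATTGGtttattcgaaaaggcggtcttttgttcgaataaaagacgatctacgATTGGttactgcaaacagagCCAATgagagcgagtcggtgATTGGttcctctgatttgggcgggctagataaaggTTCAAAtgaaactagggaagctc
Kif11, chr19:37376232-37376381, plus strand: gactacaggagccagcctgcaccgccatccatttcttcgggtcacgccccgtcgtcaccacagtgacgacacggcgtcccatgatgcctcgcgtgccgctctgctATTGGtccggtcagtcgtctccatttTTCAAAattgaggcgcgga
Mki67, chr7:135716380-135716529, minus strand: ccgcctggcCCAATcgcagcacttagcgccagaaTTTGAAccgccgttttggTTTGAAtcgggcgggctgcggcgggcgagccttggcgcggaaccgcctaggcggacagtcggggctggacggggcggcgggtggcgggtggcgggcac
Nusap1, chr2:119618148-119618297, plus strand: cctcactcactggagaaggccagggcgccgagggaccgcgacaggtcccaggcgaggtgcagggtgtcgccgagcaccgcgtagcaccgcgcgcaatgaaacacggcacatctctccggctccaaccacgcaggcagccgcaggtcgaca
Kif20b, chr19:34922208-34922357, plus strand: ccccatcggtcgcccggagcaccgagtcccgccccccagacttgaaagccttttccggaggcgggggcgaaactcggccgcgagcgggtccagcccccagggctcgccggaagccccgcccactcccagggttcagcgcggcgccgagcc
The stretches of *Plk1*, *Top2a*, *Kif11* and *Mki67* hold both motifs, with 1 CCAAT in *Plk1*, *Kif11* and *Mki67* and 4 in *Top2a*. Those of *Nusap1* and *Kif20b* hold neither, while the full window of *Kif20b* holds a TTTGAA outside the printed stretch and that of *Nusap1* holds none.

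The values are normalized counts, made by dividing the counts of each library by its size factor, and their log2 after adding 1 was used for all tests. The libraries held 19812080 to 25795815 reads, of which the 58 genes took 0.756% to 1.29%. All 58 passed the filter of a mean of at least 10 normalized counts, and the lowest value of any of them in any library was 22.6 (*Ccnf* in cMyc+prePB library 1), above the 2.48 to 3.23 normalized counts that 3 reads are worth, a floor that covers counting error only. B cell markers were high in all libraries, with summed normalized counts of 10 genes from 100064 to 261417. Of 8 T cell markers, *Lck* reached 6839 normalized counts and none of the other 7 passed 110.4 in any library. The 8 myeloid markers summed to 203 to 1445, with *Lyz2* at up to 968 and *Cd68* at up to 753, and 1 of the 8, *S100a9*, was at 0 in all libraries. The 6 red cell markers summed to 165 to 4954. Of these, *Hba-a2* was highest in library 4 of cMyc+prePB (1261), cMyc+early (1149) and cMyc+lateCD23int (1944). In cMyc+lateCD23lo it was 268 in library 4 and highest in library 2 (589).

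Compared per kilobase of merged exons, the most abundant of the 58 was *Ccnb2*, a cyclin partner of Cdk1, at 4688 ± 1196 normalized counts per kilobase (SD over 16 libraries). *Cdc20*, the activator of the anaphase promoting complex, followed at 3150.2 ± 1020.2, and *Top2a*, which untangles sister chromatids, at 2221 ± 316. *Ccnb1* was next at 2039 ± 664, and the library ranges of each of these neighbors in the order overlapped. The lowest levels were those of *Kif14* (30.2 ± 14.3), a kinesin of the midbody, *Anln* (65.5 ± 24.7), an actin binding protein of the cleavage furrow, and *Ccnf* (76.8 ± 52.8), an F-box protein. The spread between libraries differed widely between genes. The highest library was 1.45 times the lowest for *Bub3*, a checkpoint protein, and 1.63 times for *Top2a*, but 16.7 times for *Plk1* and 63.0 times for *Ccnf*.

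None of the 58 genes differed between the 4 subpopulations at an adjusted p under 0.05 in the moderated F test of limma, where 51 of the 12505 tested genes (0.408%) did. At an unadjusted p under 0.05 there were 14 (24.1%), against 10.2% of all tested genes. The quasi-likelihood test of edgeR on the recovered reads also called 0 of the 58. DESeq2 on the same reads called 3, *Cenpe*, *Mki67* and *Nusap1*, where it called 2.12% of all genes. The count of 14 became 8 without cMyc+prePB library 3, 9 without cMyc+prePB library 4 and 22 without cMyc+lateCD23lo library 1. Genes that are transcribed together vary together, so the 58 are not independent observations.

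As a summary, the deviations of log2 values from each gene's mean over the 16 libraries were averaged over the 58 genes. This score was −0.50, 0.01, −0.21 and −0.06 in cMyc+prePB libraries 1 to 4, −0.09, 0.16, 0.22 and 0.41 in cMyc+early, −0.42, 0.02, 0.05 and 0.09 in cMyc+lateCD23int and −0.53, 0.22, 0.19 and 0.44 in cMyc+lateCD23lo. Its mean was lowest in cMyc+prePB at −0.19 ± 0.23 (SD, n = 4) and highest in cMyc+early at 0.17 ± 0.21, with cMyc+lateCD23int at −0.06 ± 0.24 and cMyc+lateCD23lo at 0.08 ± 0.42. The ranges of all 4 subpopulations overlapped, and neighbors in the order differed by less than the spread of their libraries. In each subpopulation the library numbered 1 was the lowest.

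**Figure D1:**
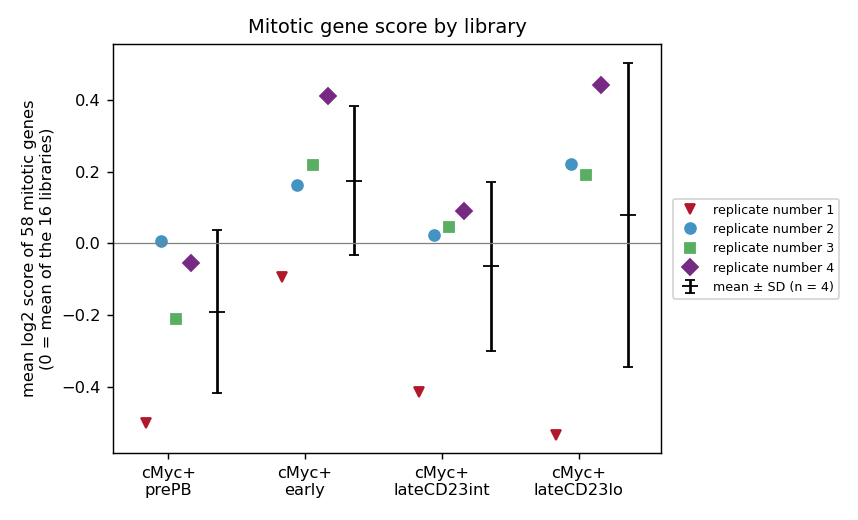
Mean log2 score of the 58 mitotic genes (y axis, log2 units, 0 is the mean of the 16 libraries) in each library of the 4 subpopulations (x axis), with the symbol and color giving the replicate number and black bars the mean ± SD (n = 4). The 4 libraries numbered 1 lie between −0.53 and −0.09, each below the other libraries of its subpopulation.

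The replicate number held 65.4% of the sum of squares of the score around its mean and the subpopulation 23.8%. Gene by gene, the median over the 58 was 30.4% for the number and 26.2% for the subpopulation, against 21.8% and 21.3% over all tested genes and 25.8% and 24.1% over the 3490 other tested genes whose means lay in the central range of those of the 58. The number held more than the subpopulation in 30 of the 58 genes (51.7%), the same share as among all tested genes (51.7%). Libraries numbered 1 had lower mean log2 values than the other 12 libraries for 51 of the 58 genes, with a median difference of −0.38, where the median of all tested genes was 0.003. The difference was widest for *Plk1* (−2.60), *Ccnf* (−2.22) and *Gtse1* (−2.02), and above 0 for 7 genes, *Pttg1* (0.35), *Smc4* (0.24), *Ndc80* (0.23), *Kif20b* (0.21), *Mad2l1* (0.06), *Cenpe* (0.05) and *Nusap1* (0.05). In each of the 4 subpopulations the library numbered 1 also had the highest share of mitochondrial reads. It was 1.83% in cMyc+prePB (others 1.34% to 1.81%), 1.87% in cMyc+early (1.48% to 1.65%), 2.95% in cMyc+lateCD23int (1.62% to 1.90%) and 2.26% in cMyc+lateCD23lo (1.53% to 1.73%). The labels do not say what the libraries with the same number share, and the part of RNA quality or cell state in this difference was not tested.

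**Figure D2:**
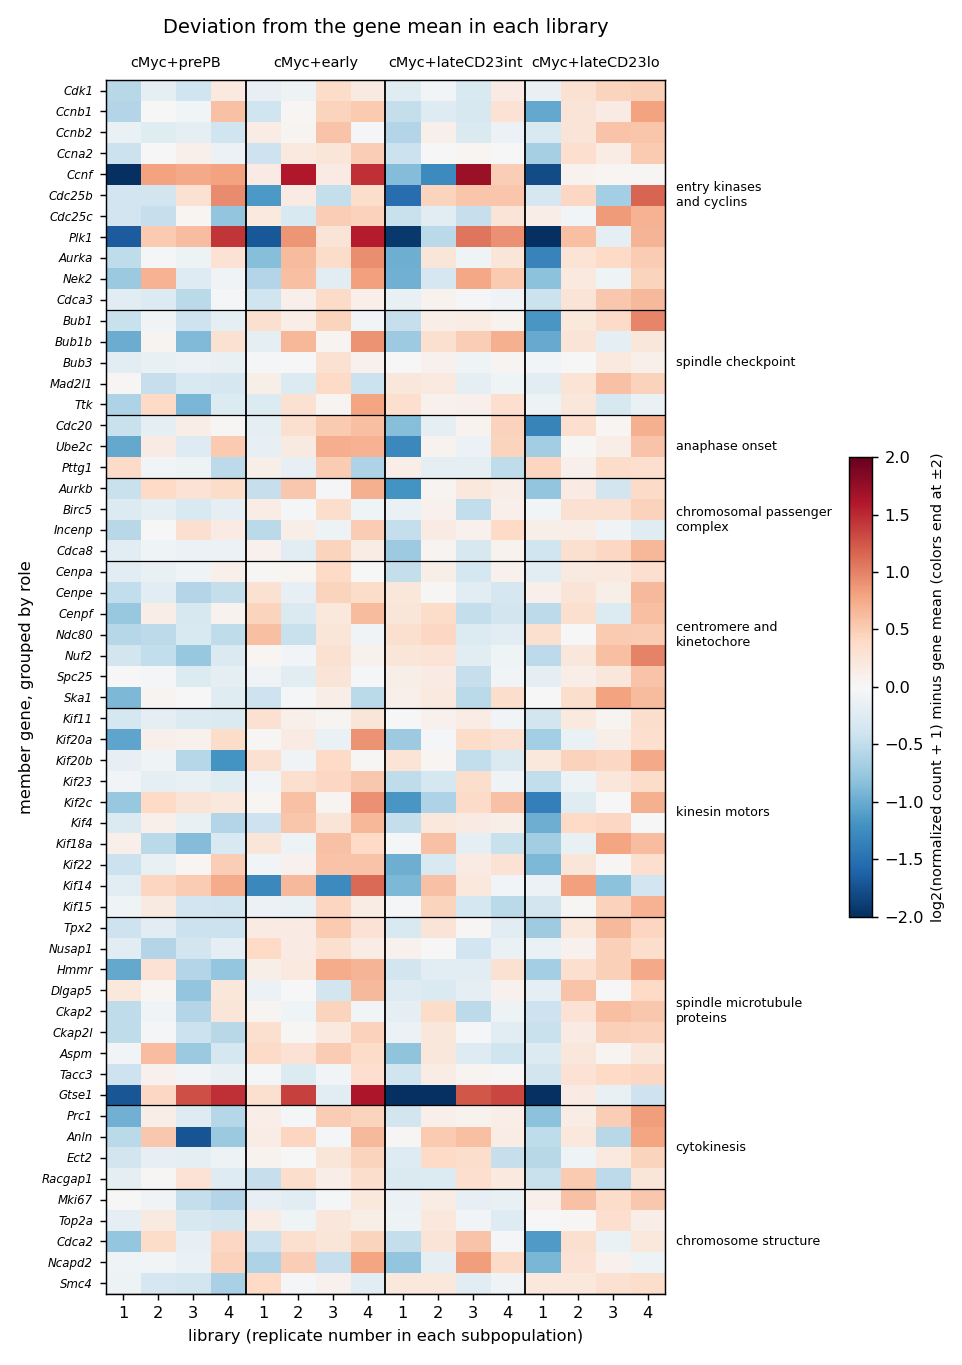
Heat map of the 58 genes (rows, grouped by role) in the 16 libraries (columns, by subpopulation and replicate number). Color gives log2(normalized count + 1) minus the gene's mean, blue below and red above, with the scale ending at ±2. The columns numbered 1 are blue in most rows and dark blue in all 4 subpopulations for *Plk1*, and *Ccnf* and *Gtse1* are dark blue in 3 or fewer of them.

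Between cMyc+prePB and cMyc+early, which compares cells near the plasmablast fate with cells at the start of positive selection, 56 of the 58 genes had lower mean log2 values in cMyc+prePB, against 48.8% of all tested genes. The median log2 fold change was −0.35, from −1.30 for *Ccnf* to 0.56 for *Kif14*, and the median of all tested genes was 0.01. Limma called 0 of the 58 at an adjusted p under 0.05 (0.192% of all tested genes were called), with the smallest adjusted p at 0.170 for *Cenpe*. At an unadjusted p under 0.05, 19 were lower (32.8%, against 4.77% of all tested genes) and 0 were higher. The values of the 2 groups did not overlap for 12 genes, all lower in cMyc+prePB (2.18% of all tested genes): *Bub1*, *Bub3*, *Birc5*, *Ccnb2*, *Cenpe*, *Ckap2l*, *Ect2*, *Kif11*, *Kif20b*, *Nuf2*, *Nusap1* and *Tpx2*. By edgeR the number called was 0, and by DESeq2 it was 2, *Cenpe* and *Nusap1*, where DESeq2 called 1.05% of all genes. The count of 19 became 12 without cMyc+prePB library 3, 11 without cMyc+prePB library 4, 11 without cMyc+early library 3 and 12 without cMyc+early library 4. Leaving out cMyc+prePB library 1 left 48 genes below 0 with a median of −0.28. Marker sums of other cell types moved with this comparison. The 8 T cell markers summed to 4539 to 7045 normalized counts in cMyc+prePB and 2195 to 3884 in cMyc+early, nearly all of it *Lck*, with *Cd3e* and *Cd4* at no more than 30.7 and 18.3 in any library. The 6 plasma cell markers summed to 48465 to 122980 and 32226 to 39886. Most of this sum in every library was *Jchain* (31885 to 104886 in cMyc+prePB and 18862 to 25960 in cMyc+early). *Irf4* overlapped, with means of 729 and 720. The part of these markers in the difference of the mitotic genes was not tested.

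From cMyc+early to cMyc+lateCD23int, the next stage, 51 genes had lower mean values, against 47% of all tested genes. The median log2 fold change was −0.22 (all tested genes 0.03). The lowest was *Gtse1* (−1.18), a microtubule plus end protein, and the highest *Cdc25b* (0.28), a phosphatase that activates Cdk1. Limma and edgeR each called 0 of the 58, as did DESeq2, where limma called 1 of all tested genes (0.008%). At an unadjusted p under 0.05, 4 were lower (6.90%, against 1.45% of all tested genes) and 0 higher. These 4 were *Aspm*, *Ccnb2*, *Kif23* and *Nusap1*, and the groups did not overlap for *Aspm* and *Nusap1* (1.11% of all tested genes were lower without overlap). The 4 became 2 without any 1 of cMyc+prePB libraries 1, 3 and 4, cMyc+early library 1, cMyc+lateCD23int libraries 1 and 3 and cMyc+lateCD23lo library 2, and 1 without cMyc+early library 3. Without cMyc+lateCD23lo library 1 the count rose to 6. The median became −0.14 without cMyc+lateCD23int library 1. The T cell markers summed to 4780 to 6576 normalized counts in cMyc+lateCD23int, above all cMyc+early libraries, and the plasma cell markers to 39703 to 70854, which overlapped with cMyc+early. *Lck* made up nearly all of the T cell sum (4700 to 6518 in cMyc+lateCD23int and 2157 to 3848 in cMyc+early). The part of these markers in this comparison was not tested either.

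From cMyc+lateCD23int to cMyc+lateCD23lo, the step toward the DZ, 42 of the 58 genes had higher mean values (48.7% of all tested genes) and 16 lower. The median was 0.18 (all tested genes −0.02). The range ran from −0.44 for *Ccnf* to 0.62 for *Cdc25c*, another Cdk1 phosphatase. Limma, edgeR and DESeq2 each called 0 of the 58 (limma called 0.008% of all tested genes). At an unadjusted p under 0.05, 7 were higher, *Birc5*, *Ccnb2*, *Cdc25c*, *Cdca8*, *Kif20b*, *Mki67* and *Pttg1* (12.1%, against 2.51% of all tested genes), and 0 were lower. For none of the 58 were the groups separate, where 1.86% of all tested genes were higher without overlap. The 16 lower genes became 7 without cMyc+lateCD23int library 3 and 5 without cMyc+lateCD23lo library 1. Without cMyc+lateCD23int library 1 they became 24, with 34 higher. The median became 0.03 without cMyc+lateCD23lo library 4 and 0.41 without cMyc+lateCD23lo library 1. The count of 7 also depended on single libraries. It became 21 without cMyc+lateCD23lo library 1, 2 without cMyc+lateCD23int library 3, 3 without cMyc+lateCD23lo library 3 and 1 without cMyc+lateCD23lo library 4.

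**Figure D3:**
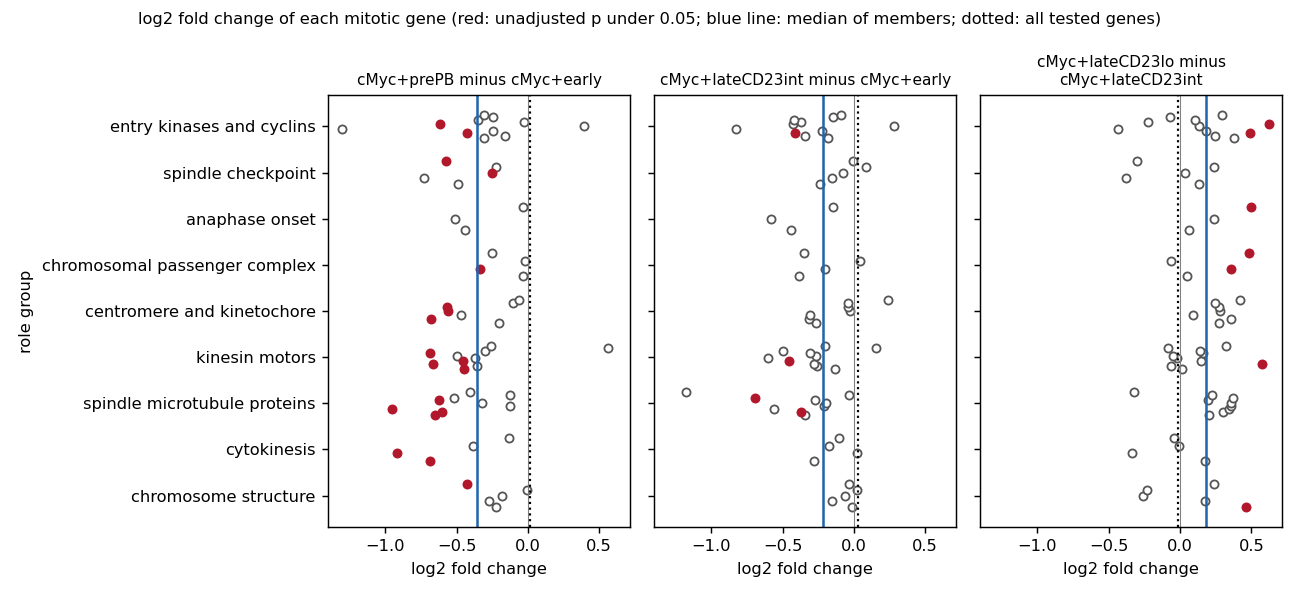
log2 fold change (x axis) of each of the 58 genes, by role (y axis), in 3 comparisons. Filled red points have an unadjusted p under 0.05 in limma (none passed after adjustment), the blue line is the median of the 58 and the dotted line that of all tested genes. The points lie left of 0 for 56 genes in the first panel and 51 in the second, and right of 0 for 42 in the third.

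The comparison of cMyc+prePB with cMyc+lateCD23lo had the smallest adjusted p of the 6 pairwise comparisons for the 58 genes. Here 49 genes were lower in cMyc+prePB, against 50.5% of all tested genes. The median was −0.29 (all tested genes −0.01), from −0.96 for *Kif20b* to 1.09 for *Gtse1*. Limma called 0 of the 58 (0.264% of all tested genes), with the smallest adjusted p at 0.0843 for *Mki67*. At an unadjusted p under 0.05, 18 were lower (31%, against 6.63%) and 0 higher. The groups were separate for 8, all lower in cMyc+prePB (3.55% of all tested genes): *Birc5*, *Bub3*, *Cenpe*, *Kif20b*, *Mki67*, *Ndc80*, *Nusap1* and *Smc4*. By edgeR the number called was 0, and DESeq2 called 7, *Cenpe*, *Kif20b*, *Mki67*, *Ndc80*, *Nuf2*, *Nusap1* and *Smc4*, where it called 2.18% of all genes. The limma call depended on libraries numbered 1. Without cMyc+prePB library 1, *Kif20b*, *Mki67* and *Smc4* were called, and without cMyc+lateCD23lo library 1, *Nuf2* and *Tpx2*. The median became −0.48 and the count of 18 became 29 without cMyc+lateCD23lo library 1, and the count was 10 without cMyc+lateCD23lo library 3. For cMyc+lateCD23lo against cMyc+early, 34 genes were lower (49.6% of all tested genes) and 24 higher. The median of −0.09 became 0.12 without cMyc+lateCD23lo library 1, when 40 were higher. Limma called 0 of the 58 there (0.28% of all tested genes), 0 were lower at an unadjusted p under 0.05 (5.2% of all tested genes) and 2 higher, *Mki67* and *Ska1* (3.45%, below the 5.12% of all tested genes). These 2 became 6 without cMyc+lateCD23lo library 1, 4 without cMyc+early library 3 and 1 without any 1 of cMyc+early libraries 1 and 4 and cMyc+lateCD23lo libraries 3 and 4. In this comparison 3 marker sums were higher in cMyc+lateCD23lo without overlap. The myeloid markers summed to 754 to 1445 (203 to 351 in cMyc+early), the plasma cell markers to 67063 to 104865 and the T cell markers to 4066 to 5912. Few genes made up these sums, and not all markers moved with them. *Lck* had means of 5136 in cMyc+lateCD23lo and 3133 in cMyc+early, and *Cd3g* of 0.25 and 7.70. *Jchain* had 64836 and 23623, and *Irf4* 596 and 720. *Lyz2* and *Cd68* made up most of the myeloid sum, and each overlapped between the groups. The part of these markers in this comparison was not tested. For cMyc+prePB against cMyc+lateCD23int, limma called 0 (0.144%), and 7 were lower at an unadjusted p under 0.05 (5.36% of all tested genes) and 0 higher, with a median of −0.12, which became −0.05 without cMyc+prePB library 1 and −0.24 without cMyc+lateCD23int library 1. This count became 3 without cMyc+prePB library 1 or cMyc+lateCD23int library 1, 2 without cMyc+prePB library 3 or 4, and 0 without cMyc+lateCD23int library 2. These comparisons share libraries, so they are not independent of each other.

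In the groups by role, lower and higher refer to mean log2 values and not to a passed test. Of all tested genes, 4.77% were lower at an unadjusted p under 0.05 in cMyc+prePB against cMyc+early and 6.63% against cMyc+lateCD23lo. The share was 1.45% in cMyc+lateCD23int against cMyc+early. The 11 entry kinases and cyclins were mostly lower in cMyc+prePB than cMyc+early (10 of 11, median −0.31, 2 at an unadjusted p under 0.05). In libraries 1 to 4, *Cdk1* (chr10:69335146-69352938 of GRCm38), the kinase of mitotic entry, had normalized counts of 2802, 3606, 3134 and 4682 in the cMyc+prePB libraries, 3685, 3838, 5323 and 4667 in those of cMyc+early, 3476, 3944, 3340.5 and 4622 in cMyc+lateCD23int and 3706, 5078, 5608 and 5704 in cMyc+lateCD23lo. The highest cMyc+prePB library lay above 3 cMyc+early libraries and 1 of cMyc+lateCD23lo, so the groups overlapped. Its log2 fold change was −0.31 ± 0.19 (SE) in cMyc+prePB against cMyc+early and 0.38 ± 0.19 from cMyc+lateCD23int to cMyc+lateCD23lo (limma adjusted p = 0.698 and 0.808). *Ccnb1*, the B-type cyclin that activates Cdk1, had 5425, 8198, 7866 and 12219 in the cMyc+prePB libraries, 6211, 8289.6, 11119 and 11738 in those of cMyc+early, 5883, 6803, 6549 and 9947 in cMyc+lateCD23int and 4031, 9809.9, 9172 and 14292 in cMyc+lateCD23lo. The library numbered 1 was the lowest of each subpopulation and the library numbered 4 the highest, and the means ran from 7296 ± 1809.7 (SD, n = 4) in cMyc+lateCD23int to 9339 ± 2569.9 in cMyc+early, with all groups overlapping. *Plk1* (chr7:122159439-122169873), the Polo kinase of centrosomes and kinetochores, had 390.1, 1784, 1909.6 and 3347 in the cMyc+prePB libraries, 381, 2283, 1492 and 3682 in those of cMyc+early, 324, 854, 2608 and 2343 in cMyc+lateCD23int and 221, 1899, 1092 and 1987 in cMyc+lateCD23lo. Every library numbered 1 was at or under 390.1 and every other library at or over 854, while the fold change of cMyc+prePB against cMyc+early was −0.03 ± 0.82 (SE). The number held 88.0% of the sum of squares of *Plk1* and the subpopulation 4.03%. *Aurka* (81.2%), the centrosomal Aurora kinase, *Ccnb1* (76.9%), *Ccna2* (72.9%), the S and G2 cyclin, and *Nek2* (65.2%), a centrosome kinase, were of the same kind.

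Among the 5 spindle checkpoint genes, all were lower in cMyc+prePB than cMyc+early (median −0.49, *Bub3* and *Ttk* at an unadjusted p under 0.05). *Bub1*, a checkpoint kinase at the kinetochore, had normalized counts of 1784, 2321, 1831 and 2137 in the cMyc+prePB libraries, 3063, 2678, 3322 and 2338 in those of cMyc+early, 1767, 2671, 2717 and 2555 in cMyc+lateCD23int and 1087, 2838, 3176 and 4804 in cMyc+lateCD23lo. All 4 cMyc+prePB libraries lay below all 4 of cMyc+early, while cMyc+lateCD23lo held both the lowest and the highest value of the 16. Its log2 fold change against cMyc+early was −0.49 ± 0.31 (SE) in cMyc+prePB, with an adjusted p of 0.711 in limma. *Bub3* varied least, with means from 12413 ± 407 in cMyc+prePB to 14858 ± 1582 in cMyc+early (log2 fold change −0.25 ± 0.11 (SE)).

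The 3 genes of anaphase onset were lower in both cMyc+prePB and cMyc+lateCD23int than in cMyc+early (median −0.44 in each) with none at an unadjusted p under 0.05. *Cdc20* had normalized counts of 4054, 4845, 6077 and 5631 in the cMyc+prePB libraries, 4846, 6959.7, 8015 and 8399 in those of cMyc+early, 3078, 4846, 5844 and 7617 in cMyc+lateCD23int and 2191, 6991, 5714 and 9046 in cMyc+lateCD23lo. The library numbered 1 was the lowest of each subpopulation, and the groups overlapped (cMyc+prePB against cMyc+early −0.44 ± 0.34 (SE), limma adjusted p = 0.793). *Ube2c*, the ubiquitin conjugating enzyme of the anaphase promoting complex, had 74.3% of its sum of squares between numbers. *Pttg1*, the securin that holds separase inactive, stood apart. Its values of 3189, 2349, 2256 and 1686 in the cMyc+prePB libraries, 2631, 2167, 3450.3 and 1589 in those of cMyc+early, 2659, 2140.4, 2121 and 1710.2 in cMyc+lateCD23int and 3269.6, 2625, 3127 and 3059 in cMyc+lateCD23lo were highest in the library numbered 1 in cMyc+prePB, cMyc+lateCD23int and cMyc+lateCD23lo, and its correlation with the mean of the other 57 was the lowest of all, at −0.29 over the 16 libraries (it is named after its values were seen).

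In the chromosomal passenger complex, which corrects attachments and guides cytokinesis, *Aurkb* and *Birc5* divided their variation in different ways. *Aurkb*, its kinase, had normalized counts of 1849.6, 3347, 3103 and 3279.5 in the cMyc+prePB libraries, 1839, 3680.3, 2471 and 4138 in those of cMyc+early, 1109.6, 2628, 2937 and 2774 in cMyc+lateCD23int and 1467, 2847, 1967 and 3291 in cMyc+lateCD23lo. The library numbered 1 was the lowest of each subpopulation, and 76.5% of the sum of squares lay between numbers. *Birc5*, which encodes survivin, had 5595, 5914, 5494 and 5968 in the cMyc+prePB libraries, 7543, 6580.0, 8634 and 6390.2 in those of cMyc+early, 6156, 7223, 4843 and 7268 in cMyc+lateCD23int and 6489.6, 8376, 8396 and 9311 in cMyc+lateCD23lo. All 4 cMyc+prePB libraries were below all of cMyc+early and of cMyc+lateCD23lo, and 52.9% of the sum of squares lay between subpopulations, and its adjusted p in the F test of limma was 0.414. *Incenp*, the scaffold, had a log2 fold change of −0.02 ± 0.26 (SE) in cMyc+prePB against cMyc+early, and *Cdca8*, which encodes borealin, had −0.25 ± 0.21 (SE).

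The 7 centromere and kinetochore genes were all lower in cMyc+prePB than cMyc+early (median −0.47, 3 at an unadjusted p under 0.05) and than in cMyc+lateCD23lo (median −0.72, 4 at an unadjusted p under 0.05). All 7 were higher in cMyc+lateCD23lo than in cMyc+lateCD23int, by a median of 0.28, with none at an unadjusted p under 0.05. *Cenpe* (chr3:135212537-135273611), the kinesin that carries chromosomes to the metaphase plate, had the smallest p in the F test of the 58 (adjusted p = 0.165). Its normalized counts were 3369, 4091, 3145 and 3403 in the cMyc+prePB libraries, 5872, 4224, 6443 and 6098 in those of cMyc+early, 5545, 4843, 4082 and 3737 in cMyc+lateCD23int and 5089.8, 5693, 5113 and 7415 in cMyc+lateCD23lo. The 4 cMyc+prePB libraries lay below all of cMyc+early and cMyc+lateCD23lo, and the library numbered 1 was not the lowest in any subpopulation except cMyc+lateCD23lo. Means were 3502 ± 409 (SD, n = 4) for cMyc+prePB, 5659 ± 986 for cMyc+early, 4552 ± 807 in cMyc+lateCD23int and 5828 ± 1095 in cMyc+lateCD23lo. The log2 fold change of cMyc+prePB was −0.68 ± 0.17 (SE) against cMyc+early and −0.72 ± 0.17 (SE) against cMyc+lateCD23lo (limma adjusted p = 0.170 and 0.0894). *Ndc80* and *Nuf2*, partners in the complex that grips microtubules, had −0.56 and −0.57 against cMyc+early, whereas *Spc25* of the same complex had −0.10. *Cenpa*, the histone of centromeres, had −0.20.

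Of the 10 kinesin motors, 9 were lower in cMyc+prePB than cMyc+early (median −0.41, 4 at an unadjusted p under 0.05). *Kif11*, the motor that pushes the spindle poles apart, had normalized counts of 5757, 6455, 6089 and 6047 in the cMyc+prePB libraries, 9058, 7906, 7630.1 and 8731 in those of cMyc+early, 7359, 7852, 8130.1 and 7084 in cMyc+lateCD23int and 5686, 8447, 7622 and 9371 in cMyc+lateCD23lo. Its cMyc+prePB libraries spanned 5757 to 6455 and lay below every cMyc+early and cMyc+lateCD23int library. The log2 fold change was −0.45 ± 0.14 (SE) against cMyc+early (limma adjusted p = 0.328). *Kif20b*, a motor of late cytokinesis, had the lowest fold change of cMyc+prePB against cMyc+lateCD23lo. Its values of 2384, 2493, 1792 and 1159.6 in the cMyc+prePB libraries, 3289.8, 2534, 3489 and 2689 in those of cMyc+early, 3206, 2743, 1897 and 2168 in cMyc+lateCD23int and 3064, 3676, 3549.7 and 4474 in cMyc+lateCD23lo put all cMyc+prePB libraries below all of cMyc+early and cMyc+lateCD23lo, with a log2 fold change of −0.96 ± 0.23 (SE) against the latter (limma adjusted p = 0.0864). *Kif14* was the only kinesin with a higher mean in cMyc+prePB than cMyc+early (0.56 ± 0.53 (SE)), where its libraries ranged from 112 to 607 in cMyc+early. *Kif20a* (70.2%) and *Kif22* (70.3%), motors of the central spindle and of chromosome arms, followed the number.

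All 9 spindle microtubule genes were lower in cMyc+prePB than cMyc+early (median −0.52, 4 at an unadjusted p under 0.05) and all 9 in cMyc+lateCD23int (median −0.34, 2 at an unadjusted p under 0.05). *Tpx2*, which nucleates spindle microtubules and activates Aurora A, had normalized counts of 4559, 5258, 4504 and 4491 in the cMyc+prePB libraries, 6774, 6798, 8729 and 7372 in those of cMyc+early, 4899, 7239.6, 6145 and 5224 in cMyc+lateCD23int and 3708, 7018, 9535 and 8126 in cMyc+lateCD23lo. All cMyc+prePB libraries lay below all of cMyc+early, and cMyc+lateCD23lo ranged widest (log2 fold change of cMyc+prePB against cMyc+early −0.65 ± 0.22 (SE), limma adjusted p = 0.376). *Nusap1* (chr2:119618298-119651244), a microtubule bundling protein, had 5365, 4185, 4849 and 5467 in the cMyc+prePB libraries, 8286, 6993, 7784 and 6964 in those of cMyc+early, 6636, 6204, 4794 and 5713 in cMyc+lateCD23int and 5716, 6609.8, 8660.2 and 7958 in cMyc+lateCD23lo. Its cMyc+early libraries lay above all of cMyc+prePB and of cMyc+lateCD23int, with log2 fold changes of −0.60 ± 0.15 (SE) and −0.37 ± 0.15 (SE) against cMyc+early (limma adjusted p = 0.171 and 0.99988). *Hmmr*, which positions the spindle, had a log2 fold change of −0.96 ± 0.30 (SE) in cMyc+prePB against cMyc+early. *Gtse1* was low and uneven, with 57, 252, 464 and 522 in the cMyc+prePB libraries, 237, 490.2, 161 and 579.6 in those of cMyc+early, 41.8, 44.8, 448 and 477 in cMyc+lateCD23int and 32.3, 212, 170.2 and 142 in cMyc+lateCD23lo. It stood below 58 normalized counts in 3 of the 4 libraries numbered 1 and in cMyc+lateCD23int library 2, so its fold changes rest on few libraries.

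The 4 cytokinesis genes were lower in cMyc+prePB than cMyc+early (median −0.54, 2 at an unadjusted p under 0.05). *Prc1*, which bundles the central spindle, had normalized counts of 1751, 3773, 2852 and 2296 in the cMyc+prePB libraries, 3773, 3381, 4856 and 4651 in those of cMyc+early, 2670.1, 3688, 3599 and 3752 in cMyc+lateCD23int and 1941, 3814, 4832 and 6103 in cMyc+lateCD23lo. The highest cMyc+prePB library overlapped with cMyc+early, and the log2 fold change was −0.68 ± 0.29 (SE) (limma adjusted p = 0.530). *Anln* had −0.92 ± 0.39 (SE), *Ect2*, the exchange factor that triggers furrowing, −0.39 ± 0.22 (SE), and *Racgap1*, its partner, −0.13 ± 0.25 (SE).

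The 5 chromosome structure genes were lower in cMyc+prePB than cMyc+early by smaller amounts (median −0.23, 1 at an unadjusted p under 0.05). *Mki67* (chr7:135689784-135716361), the antigen Ki-67 that coats mitotic chromosomes and marks cycling cells, had normalized counts of 13627, 12987, 9804 and 9087 in the cMyc+prePB libraries, 12069, 11683, 13237 and 15806 in those of cMyc+early, 12510.3, 15103, 12152 and 12261 in cMyc+lateCD23int and 14632, 20291, 17486 and 19743 in cMyc+lateCD23lo. All cMyc+lateCD23lo libraries lay above all of cMyc+prePB, and 3 of the 4 lay above the other 12 libraries. Means were 11376 ± 2264 (SD, n = 4) for cMyc+prePB, 13199 ± 1859 for cMyc+early, 13006 ± 1406 in cMyc+lateCD23int and 18038 ± 2575 in cMyc+lateCD23lo. The log2 fold change of cMyc+lateCD23lo was 0.47 ± 0.16 (SE) against cMyc+lateCD23int (limma adjusted p = 0.699), and that of cMyc+prePB was −0.68 ± 0.16 (SE) against cMyc+lateCD23lo (adjusted p = 0.0843). *Top2a* had 17471, 22568, 15833 and 15335 in the cMyc+prePB libraries, 22012, 18670.3, 23221 and 21409.5 in those of cMyc+early, 18574, 22873, 19029 and 16569.7 in cMyc+lateCD23int and 19694, 20214, 24989.7 and 21839.9 in cMyc+lateCD23lo, with overlap between all subpopulations and a fold change of −0.27 ± 0.14 (SE) on the log2 scale in cMyc+prePB against cMyc+early (limma adjusted p = 0.631). *Smc4*, a condensin subunit, had 9617, 8143, 8018 and 6534 in the cMyc+prePB libraries, 13589, 10164, 10949 and 8905 in those of cMyc+early, 11887, 11889, 8779 and 9792 in cMyc+lateCD23int and 11849.9, 11939, 12764 and 13108 in cMyc+lateCD23lo. Its cMyc+lateCD23lo libraries all lay above those of cMyc+prePB (−0.63 ± 0.15 (SE), limma adjusted p = 0.0907), whereas *Ncapd2*, another condensin subunit, had 0.21 and 51.6% of its sum of squares between numbers.

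**Figure D4:**
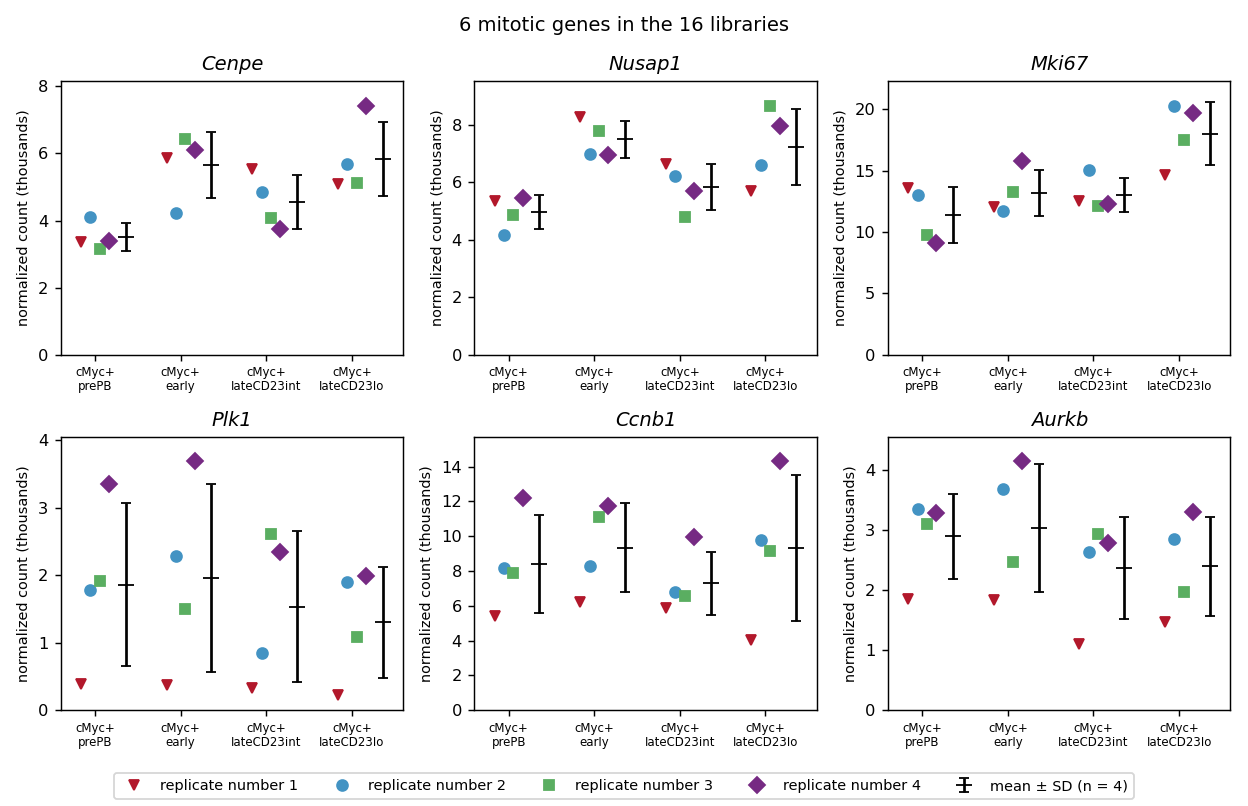
Normalized counts (y axis, from 0, scaled as its label says) of 6 genes in each library of the 4 subpopulations (x axis), with the symbol and color giving the replicate number and black bars the mean ± SD (n = 4). In the upper row (*Cenpe*, *Nusap1*, *Mki67*) the subpopulations stand apart more than the numbers, and in the lower row (*Plk1*, *Ccnb1*, *Aurkb*) the libraries numbered 1 are the lowest of each subpopulation.

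The share of the sum of squares between subpopulations was highest for *Cenpe* (66.1%), *Nusap1* (66.0%), *Mki67* (62.9%), *Smc4* (62.2%) and *Kif20b* (58.8%), with 1.58% to 16.6% between numbers, and the share between numbers was highest for *Plk1*, *Aurka*, *Ccnb1* and *Aurkb*, with 4.03% to 12.1% between subpopulations. The transcripts of these genes differ in base composition. Across the 58 genes, GC content of the longest transcript, from 38.2% in *Kif18a* to 56.0% in *Plk1*, correlated with the share between numbers (r = 0.71), with the share between subpopulations (r = −0.55) and with the difference of libraries numbered 1 from the others (r = −0.69). Over all tested genes with a known sequence (12471), the last correlation was −0.27. These are correlations across genes of the same 16 libraries, which share library preparation, depth and sequence properties. Removing a smooth trend on GC content from each library left the number with 70.4% of the sum of squares of the score and the subpopulation with 21.1%, and removing a trend on transcript length left 54.2% and 27.8%. With the score taken as the median over the genes, the shares were 47.1% and 35.4%, and with the libraries rescaled to the same total they were 76.5% and 14.7%.

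**Figure D5:**
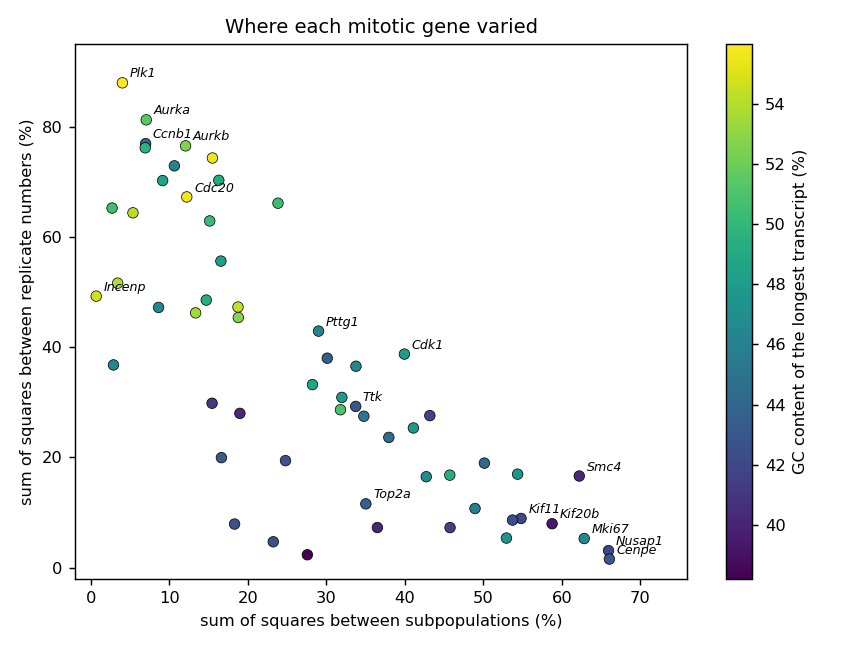
Share of each gene's sum of squares between subpopulations (x axis, percent) and between replicate numbers (y axis, percent) for the 58 genes, colored by GC content of the longest transcript (percent). *Plk1*, *Aurka*, *Ccnb1* and *Aurkb* lie at the upper left and *Cenpe*, *Nusap1*, *Mki67* and *Smc4* at the lower right.

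Over the 16 libraries, the log2 values of a gene correlated with the mean of the other 57 at a median r of 0.62, from −0.29 for *Pttg1* to 0.92 for *Ccna2*, with 39 of 58 above 0.5. After subtraction of the subpopulation means the median was 0.64 and 35 were above 0.5. For comparison, the 8611 tested genes outside the 58 with a mean of at least 100 had a median r of −0.01 with the score, and 7.11% were above 0.5. The 10 of them most like the score were *Psmc1* (r = 0.88), *Sdha* (0.88), *Rfc5* (0.87), *Tubb4b* (0.84), *Cep55* (0.84), *Ercc6l* (0.83), *Arhgap11a* (0.82), *Bora* (0.82), *Slc43a1* (0.82) and *Rrm2* (0.81). *Cep55* is an abscission protein, *Bora* a cofactor of Aurora A, *Ercc6l* a helicase of anaphase bridges and *Rrm2* a subunit of ribonucleotide reductase. The closest, *Psmc1* and *Sdha*, and also *Rfc5*, *Ercc6l* and *Slc43a1*, are in none of the lists of other pathway genes compared below.

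Other genes of the pathway, in 8 lists, were compared in the same way. In the comparisons of cMyc+prePB and of cMyc+lateCD23int with cMyc+early and of cMyc+lateCD23lo with cMyc+lateCD23int, limma called 0 genes of any list. The 6 other condensin subunits were all lower in cMyc+prePB than cMyc+early (median −0.26, from −0.53 for *Ncaph* to −0.04 for *Ncapd3*), as were 26 of 35 other spindle and centrosome genes (median −0.15, from −2.53 for *Psrc1* to 0.46 for *Sapcd2*), 12 of 16 brakes and phosphatases of mitotic entry (median −0.30, from −0.63 for *Bora* to 0.30 for *Pkmyt1*) and 8 of 13 cohesin and separase genes (median −0.17, from −0.64 for *Sgol2a* to 0.30 for *Espl1*). Of all tested genes, 48.8% were lower in this comparison. The median was −0.08 over 31 other kinetochore subunits (18 lower, with *Cenpc1* lowest at −0.66 and *Mad1l1* highest), 0.03 over 15 subunits and partners of the anaphase promoting complex (5 lower, from −0.90 for *Cdc27* to 0.47 for *Anapc2*) and 0.02 over 16 transcription factors of mitotic genes (8 lower, from −1.43 for *E2f7* to 0.96 for *Mybl2*). The 30 DNA replication genes, which act in S phase, had a median of 0.09 in this comparison, with 22 higher in cMyc+prePB (51.2% of all tested genes), from −0.34 for *Chaf1b* to 0.70 for *Orc1*. In it, 0 of the 30 had an unadjusted p under 0.05 in either direction. They had a median of 0.21 in cMyc+lateCD23lo against cMyc+lateCD23int, with 20 higher. Of these, 6 were at an unadjusted p under 0.05, against 2.51% of all tested genes. In that comparison the medians of the other lists ran from −0.09 for the transcription factors to 0.25 for cohesin and separase. Against cMyc+early, the replication genes had a median of 0.22 in cMyc+lateCD23lo, with 10 higher at that threshold (5.12% of all tested genes). In cMyc+prePB against cMyc+lateCD23lo their median was −0.16, with 11 lower at that threshold (6.63% of all tested genes) and 0 higher. In cMyc+prePB against cMyc+lateCD23lo, limma called 1 gene of the lists, *Stmn1*, which encodes the microtubule destabilizing protein stathmin (log2 fold change −0.66 ± 0.13 (SE), adjusted p = 0.0327).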

How the data were processed

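Bulk RNA sequencing libraries were made with a low input kit from sorted cells, 4 for each of 4 subpopulations, and no library was left out. Per the labels and methods, the authors trimmed reads (Trimmomatic 0.36), aligned them to GRCm38 (STAR 2.5.2a), counted genes with RSEM 1.2.31 and normalized in DESeq2 1.20.0 (R 3.5.1). The deposited signal values are counts divided by 1 size factor per library. Whole reads were recovered from their steps for 100% of values (tolerance 0.01). Genes with a mean of at least 10 normalized counts (12505) were fitted on log2(value + 1) with limma 3.58.1 (R 4.3.3), all 16 libraries in 1 model, the prior variance following a trend, and p-values adjusted over all tested genes by Benjamini-Hochberg (threshold 0.05). A pseudocount of 1 understates fold changes of low genes. Alternatives were edgeR 4.0.16 and DESeq2 1.42.0 on recovered reads, other pseudocounts, filters and scalings, a replicate block and leaving out each library. The scripts were tested on simulated data. Library values are given for 12 genes fixed by name, 1 or 2 for a role, and for the 3 genes with the smallest p in the F test (*Cenpe*, *Nusap1* and *Mki67*). Those of *Birc5*, *Gtse1*, *Kif20b*, *Pttg1* and *Smc4* were added after their values were seen, and other genes were named as the extremes of a list, for non-overlap or for a role. The 58 genes, the lists and the tests were chosen with earlier results of these data known. Reads shared with near-identical copies were not examined.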

Additional observations from a re-analysis of the deposited data

Results flagged for a closer look

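Among 56 sets of 4 libraries screened (13 genes and the score, in 4 subpopulations), 7 held 1 library far from the other 3 by Dixon's criterion, which chance alone meets in about 1 of 20. In cMyc+lateCD23int library 1, *Aurkb* was at 1109.6 normalized counts (others 2628 to 2937), *Bub1* at 1767 (2555 to 2717), *Prc1* at 2670.1 (3599 to 3752) and the score of the 58 genes at −0.42 (0.02 to 0.09). In cMyc+prePB library 1, *Aurkb* was at 1849.6 (3103 to 3347). In cMyc+prePB library 2, *Tpx2* was at 5258 (4491 to 4559), and in cMyc+lateCD23int library 2, *Mki67* was at 15103 (12152 to 12510). Of the 7, 5 were low values in libraries numbered 1. What these libraries share was not tested.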

How the results depend on the processing

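Of the 58 genes, limma called 0 in every comparison, and this held under other pseudocounts, filters, scalings and prior variances and in edgeR without a block, with exceptions in 3 comparisons. DESeq2 on recovered reads called 3 in the F test, 2 in cMyc+prePB against cMyc+early and 7 in cMyc+prePB against cMyc+lateCD23lo. In the last comparison, the replicate block with limma called 3 (*Kif20b*, *Mki67* and *Smc4*, of 192 genes in all, against 33 without the block). There edgeR with the replicate block called 1 (*Smc4*), and leaving out 1 library called 0 to 3. The block changed no other call of the 58. With it, the genes lower at an unadjusted p under 0.05 in cMyc+lateCD23int against cMyc+early were 11 in limma and 11 in edgeR, against 4 in the main fit. Of all tested genes, 5.4% in limma and 4.85% in edgeR passed there in either direction, against 3.71% in the main fit. The replicate numbers were not taken as pairs, since only 5 of 24 correlations between same-numbered libraries' deviations were above 0.1 (mean 0.05 over all tested genes). Over the 58 genes alone the mean was 0.27, from −0.66 to 0.77, and 10 of 16 libraries correlated best with their own number over all tested genes. Pairs of libraries numbered 1 correlated at 0.53 to 0.77 over the 58 genes. Variation between numbers thus stayed in the residual of the main fit. Leaving out the 4 libraries numbered 1, chosen after seeing the data, called 7 in cMyc+prePB against cMyc+lateCD23lo and turned the median of cMyc+lateCD23lo against cMyc+early from −0.09 to 0.083. That median ran from −0.20 to 0.12 when 1 library was left out. The cause was not tested. Removing a trend on GC content or on transcript length, also chosen after seeing the data, left the number of genes called at 0 and the sign of each median as it was, and moved the genes lower at an unadjusted p under 0.05 in cMyc+prePB against cMyc+lateCD23int from 7 to 2 with either trend.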
